A study of Mus musculus with 10 samples.

Results

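Expression of 10 genes of the pluripotency network was followed across mouse embryonic stem (ES) cell lines that lack the DNA demethylation enzymes Tet1, Tet2 or both. The genes were Pou5f1, Sox2, Utf1, Dppa2, Dppa3, Dppa4, Dppa5a, Nr0b1, Tcl1 and Gbx2. All probes that the scanner files name for these genes were taken, which gave 10 of 31660 gene names and 13 of 39429 probes on the array. The 13 probes occupied 22 of 43020 gene spots, because the Nr0b1 probe is printed in 10 spots. All 13 were well above background in all 6 groups of genotype and sex and were among the 25869 probes tested, and none was saturated.

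ES cells come from the early embryo and keep the ability to form all tissues of the embryo. Pou5f1 (Oct4) and Sox2 are transcription factors that bind DNA together at enhancers of ES cell genes and hold the cells in the pluripotent state. The other members are genes typical of ES cells: chromatin and RNA-binding proteins, a nuclear receptor, a kinase cofactor and a homeobox factor. Tet1 and Tet2 oxidise 5-methylcytosine, which in these cells lies mostly in CG dinucleotides (CpG), and so take part in removing DNA methylation.

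RNA of 11 ES lines was hybridised on 10 two-colour arrays, from 200 ng of total RNA per labelling. The lines were 4 wild type (WT 6 and WT 92, male; WT 7 and WT 94, female), 4 Tet1/Tet2 double knockout (DKO 51 and DKO 61, male; DKO 60 and DKO 59, female), 2 male Tet1 knockout (T1KO 99 and T1KO 65) and 1 male Tet2 knockout (T2KO 16). All lines came from mice of a mixed C57BL/6 background, as far as the labels say, and grew untreated on irradiated feeder cells with LIF, the feeders being removed on gelatin before RNA was taken. Each knockout is the loss of the gene in every cell of the line, and the Tet2 knockout rests on a single line. WT and T1KO RNA always carried the dye Cy3, and DKO and T2KO RNA always Cy5, so dye and genotype cannot be told apart between them. DKO 51 was set against WT 6, DKO 61 against WT 92, DKO 60 against WT 7, DKO 59 against WT 94, and T2KO 16 against T1KO 65. The Cy5 sample set against T1KO 99 is excluded by the labels for its genotype. Male DKO pairs, female DKO pairs and the single knockouts lay on 1 slide each, so sex and slide cannot be told apart either.

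Tet1 checked the labels: its level was 12.78 to 13.12 in WT, 12.91 in T2KO 16 and 10.52 to 11.07 over the T1KO and DKO lines. Tet2 was 11.51 to 12.05 in WT, 11.43 and 11.57 in T1KO, 9.40 to 10.12 in DKO and 9.74 in T2KO 16. The ES cell markers Pou5f1, Sox2, Nanog, Zfp42 and Esrrb were well above background in all 6 groups of genotype and sex. A level here is the normalized log2 intensity of a probe, and it is compared between lines but never between probes. Repeat arrays of a pair of lines differed by at most 0.28 (log2) for any member probe, the Dppa5a probe in T2KO 16 over T1KO 65.

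Dppa2 and Dppa4 were each read by more than 1 probe, so the first 30 bases of these probes are shown, to tell apart the readings given below. The neighbouring genes encode SAP-domain proteins that act as a pair on chromatin. Dppa3 (Stella), Dppa5a (Esg1) and Tcl1, whose levels differed most between lines, follow. Positions are those of the array design on mm9; exon annotation was not used here.
Dppa2 A_66_P136844, chr16:48319381-48319440, plus strand: accacttagccagtactgatgtatgtttga
Dppa2 A_55_P2059730, chr16:48317579-48318787, plus strand: tcctgaatgtgttcagagcaacaagaagat
Dppa4 A_55_P2065549, chr16:48291368-48291427, plus strand: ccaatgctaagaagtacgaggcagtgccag
Dppa4 A_66_P101192, chr16:48293216-48293867, plus strand: ataagaacaagatcttgactaagagcctcg
Dppa4 A_55_P2158607, chr16:48294346-48294405, plus strand: atctggcttgtggcttttgtttttgttatc
Dppa3 A_55_P2091496, chr6:122580207-122580266, plus strand: cccagggctgaggaataaagtaaatagaat
Dppa5a A_55_P2028171, chr9:78214866-78214925, minus strand: ctgcgcattctgatgtgaatcccaaggtta
Tcl1 A_55_P1960342, chr12:106454973-106455032, minus strand: gtgtgggattttatgtggttctattttaga
The second Dppa2 probe spans 1209 bases of genome and the second Dppa4 probe 652, against 60 for the others shown.

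CpG content was read from the RefSeq promoter table of GRCm38.p6, which gives 250 bases before to 50 after a start. It held 7 windows for 6 of the 10 members; Dppa2, Dppa3, Dppa4 and Dppa5a had no entry. The window held 27 CpG in Sox2 and in Gbx2, 17 in Utf1, 14 in Nr0b1, 11 in Tcl1, and 11 and 6 at the listed starts of Pou5f1. The median over all 32851 windows was 7, so 6 of the 7 member windows lay above it. The octamer ATGCAAAT, searched on both strands, matched none of the 7 windows and 1.74% of all windows. The Sox motif CATTGTT matched the second Pou5f1 window, in its listing order, and 3.78% of all. DNA methylation was not measured, and these are descriptions of sequence only. The 250 bases before the start are printed, with each CpG in capitals, for Utf1, the member with the lowest unadjusted p in any comparison, and for Nr0b1 and Tcl1, which belong to the pairs of members most alike across lines.
Utf1 promoter, chr7:139943606-139943855, plus strand: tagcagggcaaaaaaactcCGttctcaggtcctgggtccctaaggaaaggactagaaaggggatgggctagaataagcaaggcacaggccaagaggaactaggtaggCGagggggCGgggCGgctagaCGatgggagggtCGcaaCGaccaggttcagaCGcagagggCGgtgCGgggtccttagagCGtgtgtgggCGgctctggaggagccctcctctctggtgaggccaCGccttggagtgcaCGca
Nr0b1 promoter, chrX:86191525-86191774, plus strand: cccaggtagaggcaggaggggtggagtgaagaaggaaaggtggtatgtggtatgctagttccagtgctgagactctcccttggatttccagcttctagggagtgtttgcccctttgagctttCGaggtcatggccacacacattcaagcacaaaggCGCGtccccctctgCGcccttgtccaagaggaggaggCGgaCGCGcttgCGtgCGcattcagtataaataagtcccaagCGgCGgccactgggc
Tcl1 promoter, chr12:105222738-105222987, minus strand: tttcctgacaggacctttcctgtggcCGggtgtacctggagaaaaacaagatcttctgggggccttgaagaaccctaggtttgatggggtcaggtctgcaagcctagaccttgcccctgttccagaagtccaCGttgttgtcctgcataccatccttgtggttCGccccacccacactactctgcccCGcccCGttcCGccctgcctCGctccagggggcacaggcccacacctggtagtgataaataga

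With both Tet1 and Tet2 lost, none of the 10 genes passed. For DKO against WT, 0 of 13 member probes passed at an adjusted p of 0.05 (limma on the log2 ratios of the 4 pairs, Benjamini-Hochberg over all 25869 probes), against 4.03% of all probes (1043, of which 642 higher and 401 lower). At an unadjusted p under 0.05, 1 member probe (Nr0b1) was counted, against 26.1% of all probes. Of the 10 leading probes, the brightest of each gene, 5 had a mean ratio above 0 and 5 below, and their median was 0.02, as was that over all probes. Without regard to sign, the median size of the ratio was 0.22 for the leading probes and 0.14 over all probes. For no member did the DKO lines lie wholly above the WT lines (7.39% of all probes) or wholly below (5.87%). The ratio depends on the dye normalization: with arrays centred on their median in place of loess, which moved the median of all probes to 0.22 and the split of calls to 9162 higher and 857 lower, 8 of 13 member probes passed and all 8 were higher. The calls over all probes rest on every pair: leaving out any 1 of the 4 pairs left 0 probes past the threshold (4498 to 6049 at an unadjusted p under 0.05), and so did a variance prior that follows intensity. RNA was taken from whole cultures, so fewer cells that express a gene and less RNA per cell cannot be told apart. Where nothing says that lines came from separate embryos, the p-values measure only the spread between these lines.

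**Figure D1:**
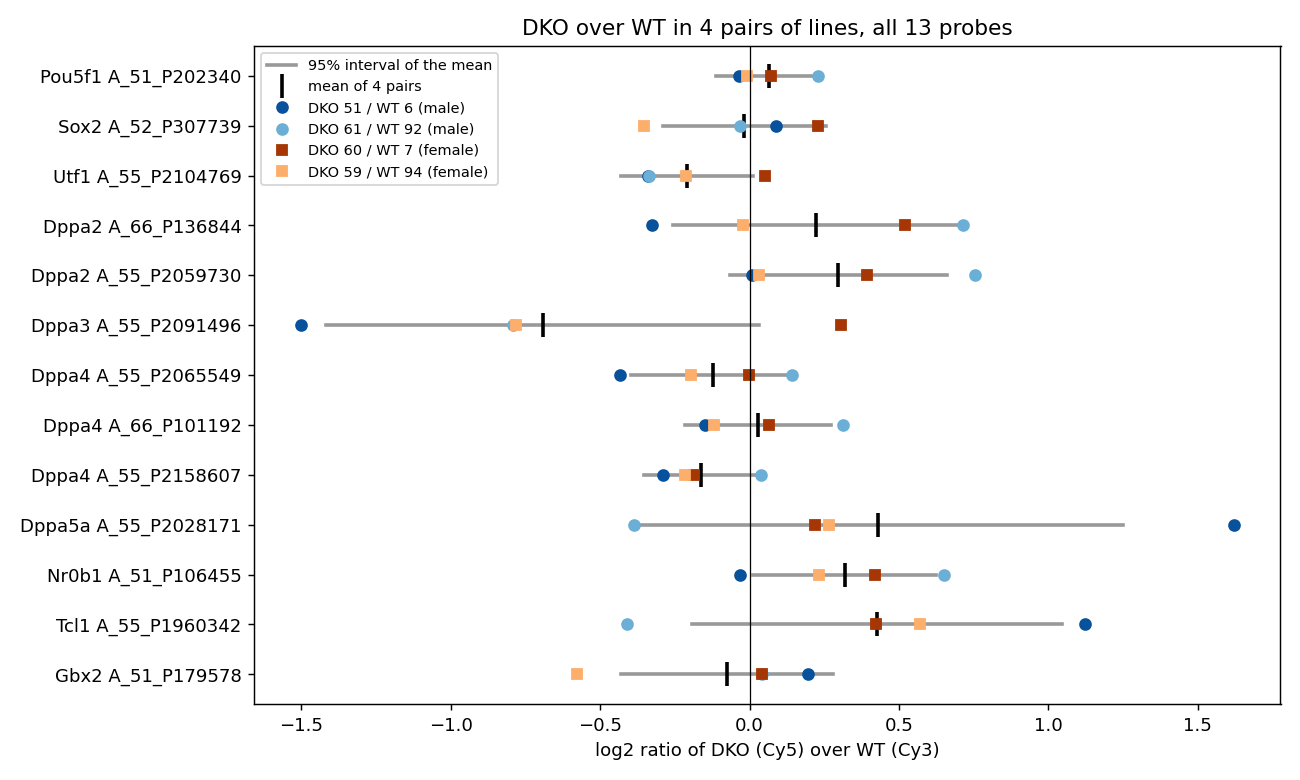
Log2 ratio of DKO (Cy5) over WT (Cy3) on the horizontal axis for the 13 member probes, 1 row each. Points are the 4 pairs of lines, the black mark their mean and the grey bar its 95% interval. The bars of 12 probes cross 0 and that of Nr0b1 starts at 0.01; Dppa3, Dppa5a and Tcl1 show the widest scatter between pairs.

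Pou5f1 and Sox2, the central transcription factors, varied over 0.55 and 0.81 (log2) across the 11 lines. The Pou5f1 level was 15.43, 15.17, 15.65 and 15.35 in WT 6, 92, 7 and 94 and 15.39, 15.40, 15.72 and 15.35 in DKO 51, 61, 60 and 59. It was 15.37 and 15.24 in T1KO 99 and 65 and 15.50 in T2KO 16. The DKO and WT ranges overlapped, and DKO 60 and WT 7, partners on 1 array, were the highest of their genotypes. The mean log2 ratio of DKO over WT was 0.06 (SE 0.0698, adjusted p = 0.596), with a 95% interval from -0.11 to 0.24, and 0.01 without DKO 61 and WT 92. Median centring of the arrays gave 0.71 (limma, adjusted p = 0.00339), where the median of all probes was 0.22.

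Sox2 read 12.80, 12.44, 12.47 and 12.81 in WT 6, 92, 7 and 94 and 12.88, 12.41, 12.70 and 12.46 in DKO 51, 61, 60 and 59. It read 12.66 and 12.08 in T1KO 99 and 65 and 12.73 in T2KO 16. T1KO 65 was the lowest of the 11 lines, and the WT and DKO values were interleaved. The mean ratio of DKO over WT was -0.02 (SE 0.108, adjusted p = 0.936; 95% interval -0.29 to 0.26). Leaving out the pair DKO 59 and WT 94 turned this mean to 0.10.

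**Figure D2:**
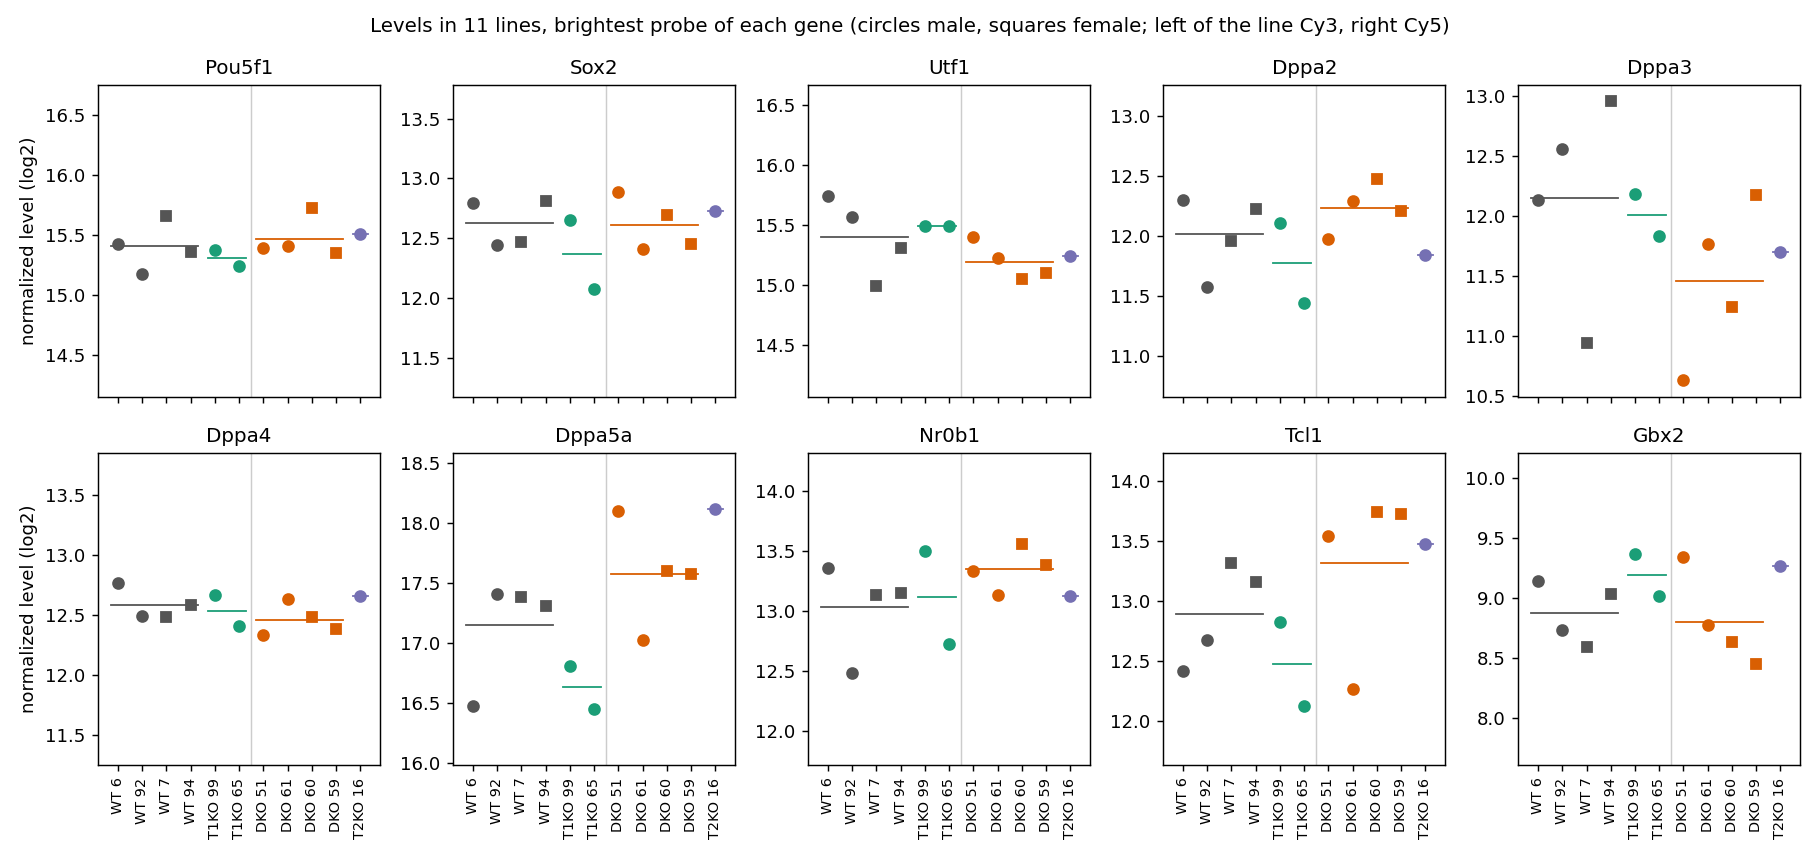
Normalized log2 level (vertical axis) of the leading probe of each gene in the 11 lines (horizontal axis). Circles are male and squares female lines, horizontal bars are genotype means, and the vertical line divides Cy3 from Cy5 samples; all panels span the same number of log2 units. Dppa4 and Pou5f1 vary least, and Dppa3 ranges from 10.63 in DKO 51 to 12.96 in WT 94.

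Utf1 encodes a chromatin-associated protein that is a target of Pou5f1 and Sox2. Its level was 15.74 and 15.56 in the male lines WT 6 and 92 and 14.99 and 15.31 in the female lines WT 7 and 94. In DKO it was 15.40 and 15.23 in the male lines 51 and 61 and 15.05 and 15.10 in the female lines 60 and 59. Within each genotype both female lines were below both male lines. T1KO 99 and 65 read 15.49 each, and T2KO 16 read 15.24.

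Female minus male WT was -0.50 (SE 0.132; limma, unadjusted p = 0.00543, adjusted p = 0.215), with a 95% interval from -0.81 to -0.20. With the scanner software's processed signals it was -0.19 (adjusted p = 0.714), and it ranged from -0.66 to -0.34 without 1 line. In that comparison 0.711% of all probes passed and no member did. At an unadjusted p under 0.05, 1 member probe (Utf1) was counted, against 11.2% of all probes. The Utf1 value was the lowest unadjusted p of any member probe in any comparison. Female WT levels lay wholly below male WT in 21.8% of all probes and female DKO wholly below male DKO in 26.5%. Utf1 was lower in DKO than in WT in 3 of 4 pairs, by 0.34, 0.34 and 0.21, and the pair DKO 60 over WT 7 stood at 0.05. The mean was -0.21 (SE 0.0877, adjusted p = 0.210; 95% interval -0.43 to 0.01). From the log ratios that the scanner software wrote it was -0.01, and with median centring 0.42 (limma, adjusted p = 0.00970).

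Dppa2 and Dppa4, the paired chromatin proteins, are known to activate genes of the 2-cell-like state and to keep developmental promoters open to later use. The leading Dppa2 probe read 12.30, 11.57, 11.96 and 12.23 in WT 6, 92, 7 and 94 and 11.97, 12.29, 12.48 and 12.20 in DKO 51, 61, 60 and 59. It read 12.11 and 11.44 in T1KO 99 and 65 and 11.84 in T2KO 16. T1KO 65 and WT 92 were the lowest lines and DKO 60 the highest, and the DKO range lay inside the upper part of the WT range except for DKO 60. The ratios by pair were -0.32, 0.72, 0.52 and -0.02, with a mean of 0.22 (SE 0.189, adjusted p = 0.498; 95% interval -0.26 to 0.70). Without 1 pair it ranged from 0.06 (DKO 61 and WT 92 left out) to 0.40 (DKO 51 and WT 6 left out).

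The second Dppa2 probe, on the stretch that spans 1209 bases, read above 0 in all 4 pairs, at 0.01, 0.75, 0.39 and 0.03. That was so of 20% of all probes. Its mean was 0.30 (SE 0.143, adjusted p = 0.259; 95% interval -0.07 to 0.66), and 0.14 without DKO 61 and WT 92. Both Dppa2 probes were lowest in T1KO 65.

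Dppa4 was among the steadiest members. The leading probe read 12.77, 12.49, 12.48 and 12.58 in WT 6, 92, 7 and 94 and 12.33, 12.63, 12.48 and 12.39 in DKO 51, 61, 60 and 59. It read 12.67 and 12.41 in T1KO 99 and 65 and 12.66 in T2KO 16. All lines lay within 0.43 (log2), with DKO 51 lowest and WT 6, its partner on the arrays, highest.

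The mean ratio of DKO over WT was -0.12 for the leading Dppa4 probe (SE 0.108, adjusted p = 0.513; 95% interval -0.40 to 0.15), and -0.02 without DKO 51 and WT 6. The other probes gave 0.03 (A_66_P101192, SE 0.0963, adjusted p = 0.880) and -0.16 (A_55_P2158607, SE 0.0757, adjusted p = 0.246). The probes disagreed in sign between male DKO and T2KO 16, both in Cy5. There the difference was -0.17 for the leading probe, 0.35 for A_66_P101192 and -0.31 for A_55_P2158607, with adjusted p of 0.711, 0.443 and 0.391.

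Dppa3 encodes Stella, a maternal factor that shields 5-methylcytosine from oxidation in the zygote and that only some cells of an ES culture express. It had the widest range of the 10 genes. The level was 12.13, 12.56, 10.94 and 12.96 in WT 6, 92, 7 and 94 and 10.63, 11.77, 11.25 and 12.18 in DKO 51, 61, 60 and 59. It was 12.18 and 11.84 in T1KO 99 and 65 and 11.70 in T2KO 16. DKO 51 and WT 7 were the lowest lines and WT 94 the highest, and the ranges of the genotypes overlapped.

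The spread of Dppa3 within a genotype (SD 0.873 over 4 WT lines and 0.670 over 4 DKO lines) exceeded that of 98.9% and 98.2% of all probes, whose median SD was 0.159 and 0.158. On repeat arrays of a pair, DKO 51 over WT 6 gave -1.54 and -1.47, and DKO 59 over WT 94 gave -0.75 and -0.81.

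Dppa3 was lower in DKO than in WT in 3 of 4 pairs, at -1.50, -0.79 and -0.78, and stood at 0.31 in DKO 60 over WT 7. The mean was -0.69 (SE 0.286), a 1.62-fold lower level, and did not pass (adjusted p = 0.206; 95% interval -1.42 to 0.03). It was -0.42 without DKO 51 and WT 6 (adjusted p = 0.385) and -1.02 without DKO 60 and WT 7 (adjusted p = 0.0886). The pair that stood apart also differed in some other gene groups, though not in most of those listed. In DKO 60 over WT 7 the median ratio of 14 genes of the 2-cell-like state was -1.35, that of 13 primed epiblast genes 0.99 and that of 20 fibroblast genes 0.91. In the other 3 pairs these medians ran from 0.33 to 0.73, from -0.54 to 0.38 and from -0.44 to 0.04. Medians of DKO 60 over WT 7 lay inside the range of the other 3 pairs for 5 further lists. These were germ cell (0.33), primitive endoderm (0.30), trophectoderm (0.13), mesoderm (0.08) and neuroectoderm (-0.16) genes. For other pluripotency factors the median was -0.14, against -0.11 to 0.02 in the other 3 pairs. Relative to the Cy3 lines WT 7 was at 1.54 for the 2-cell-like genes, -0.78 for the primed genes and -0.53 for the fibroblast genes. Relative to the Cy5 lines DKO 60 was at 0.07, 0.36 and 0.31 for the same lists. All 20 fibroblast genes, 12 of 13 primed genes and 7 of 14 genes of the 2-cell-like state were well above background in all groups. The summed normalized level of the fibroblast genes, divided by 1000, was 191 to 345 in WT and 200 to 271 in DKO. For the 2-cell-like genes it was 97.0 to 178 in WT and 155 to 197 in DKO, and for the primed genes 40.1 to 107 and 56.1 to 88.4. Their part in the Dppa3 values was not tested.

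Dppa5a, a KH-domain RNA-binding protein typical of ES cells, varied mostly in the male lines. It read 16.48, 17.41, 17.39 and 17.31 in WT 6, 92, 7 and 94 and 18.10, 17.03, 17.60 and 17.58 in DKO 51, 61, 60 and 59. It read 16.81 and 16.45 in T1KO 99 and 65 and 18.12 in T2KO 16. T1KO 65 and WT 6 were the lowest lines, and their partners on the arrays, T2KO 16 and DKO 51, were the highest.

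The Dppa5a ratio of DKO over WT was 1.62 in DKO 51 over WT 6, -0.39 in DKO 61 over WT 92, and 0.22 and 0.26 in the female pairs. The mean was 0.43 (SE 0.324, adjusted p = 0.446; 95% interval -0.39 to 1.25), and it was 0.03 without the first pair and 0.70 without DKO 61 and WT 92. The 2 male pairs differed in sign, so male minus female DKO over WT, at 0.38 (SE 0.690, adjusted p = 0.932), turned to -0.63 without that pair.

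Tcl1, a cofactor that raises the activity of the kinase Akt and a target of Pou5f1, had a pattern like that of Dppa5a. It read 12.42, 12.67, 13.32 and 13.15 in WT 6, 92, 7 and 94 and 13.54, 12.27, 13.74 and 13.73 in DKO 51, 61, 60 and 59. It read 12.83 and 12.12 in T1KO 99 and 65 and 13.47 in T2KO 16. DKO 61 stood apart below the other DKO lines, and T1KO 65 was the lowest of all.

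Female lines were above both male lines for Tcl1 in WT and in DKO, as were 18.5% and 21.1% of all probes. Female minus male WT was 0.69 (SE 0.386, adjusted p = 0.558; 95% interval -0.21 to 1.58). The ratios of DKO over WT were 1.12, -0.41, 0.42 and 0.57, with a mean of 0.43 (SE 0.245, adjusted p = 0.327; 95% interval -0.19 to 1.05). Without DKO 51 and WT 6 it was 0.20, and without DKO 61 and WT 92 it was 0.71.

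Over the 11 lines, after subtracting from each level the mean of its dye, Dppa5a and Tcl1 had a Pearson r of 0.74. The points share slides, arrays and normalization, and the value is a description. DKO 61, T1KO 65 and WT 6 were low for both genes, and WT 7, WT 94, DKO 51 and T2KO 16 were high for both. Another 4 lines had opposite signs: WT 92 stood at 0.44 for Dppa5a and at -0.08 for Tcl1, DKO 60 at -0.08 and 0.39, DKO 59 at -0.11 and 0.38, and T1KO 99 at -0.16 and 0.07.

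**Figure D3:**
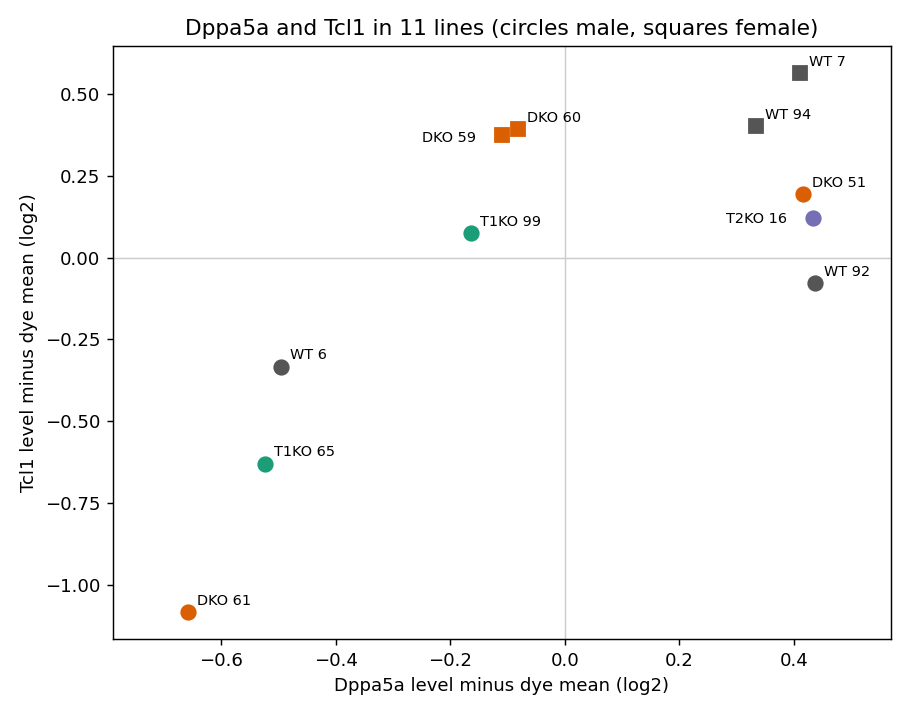
Dppa5a level (horizontal axis) against Tcl1 level (vertical axis) in the 11 lines, each minus the mean of the lines in the same dye (log2). Circles are male and squares female lines, coloured by genotype. DKO 61, T1KO 65 and WT 6 lie at the lower left, and r over the 11 lines is 0.74.

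Nr0b1 (Dax1), an X-linked nuclear receptor that binds Pou5f1 and limits its activity, had the lowest adjusted p of the members in DKO over WT. Its level was 13.36, 12.48, 13.13 and 13.15 in WT 6, 92, 7 and 94 and 13.33, 13.13, 13.55 and 13.38 in DKO 51, 61, 60 and 59. It was 13.50 and 12.72 in T1KO 99 and 65 and 13.12 in T2KO 16. WT 92 was the lowest line and DKO 60 the highest, and the DKO range overlapped the upper part of the WT range.

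The Nr0b1 ratio of DKO over WT was -0.03, 0.65, 0.42 and 0.23 by pair, with a mean of 0.32 (SE 0.121), a 1.25-fold higher level. Its 95% interval ran from 0.01 to 0.63 (limma, unadjusted p = 0.0442), and the adjusted p was 0.180. Without DKO 61 and WT 92 the mean was 0.21 (adjusted p = 0.377). In the scanner software's log ratios the 10 spots of this probe gave an SD of 0.02 to 0.11 (log2) within an array. The 0.11 came from an array of T2KO 16 over T1KO 65. By those ratios DKO 51 over WT 6 stood at 0.05 on each repeat array, so the sign of this pair depends on the processing. Female minus male WT was 0.22 (SE 0.316, adjusted p = 0.830; 95% interval -0.51 to 0.95), which turned to -0.22 without WT 92.

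Gbx2, a homeobox factor that acts downstream of LIF and STAT3 in ES cells, read 9.14, 8.73, 8.59 and 9.03 in WT 6, 92, 7 and 94. It read 9.34, 8.78, 8.63 and 8.45 in DKO 51, 61, 60 and 59, 9.37 and 9.02 in T1KO 99 and 65 and 9.27 in T2KO 16. The ranges of WT and DKO overlapped. The female DKO lines were below both male DKO lines, as were those of 26.5% of all probes. The mean ratio of DKO over WT was -0.07 (SE 0.140, adjusted p = 0.770; 95% interval -0.43 to 0.28). The pair DKO 59 over WT 94 stood at -0.58 and the other 3 pairs at 0.04 to 0.20. Without DKO 59 and WT 94 the mean was 0.09.

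The DKO over WT ratios of male and female pairs were compared in a fit with a mean per group. No member probe passed, and 0% of all probes did (limma, 0 of 25869; 1315, or 5.08%, had an unadjusted p under 0.05, no member among them). Male minus female was largest for Dppa3, at -0.91 (SE 0.455, adjusted p = 0.834; 95% interval -2.13 to 0.31), and ranged from -1.45 without DKO 59 and WT 94 to -0.37 without DKO 60 and WT 7. For Gbx2 it was 0.39 (SE 0.247, adjusted p = 0.834; 0.08 without DKO 59 and WT 94, 0.70 without DKO 60 and WT 7) and for Utf1 -0.26 (SE 0.149, adjusted p = 0.834). The 95% interval ran from -0.28 to 1.05 for Gbx2 and from -0.66 to 0.14 for Utf1. For Dppa3, whose interval was wider, a difference between the sexes of the size of its DKO over WT ratio was not detectable.

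T2KO 16 was set directly against T1KO 65. Of the 10 leading probes 8 were higher in T2KO 16, all but Utf1 and Dppa3, and their median log2 ratio was 0.33 against 0.01 over all probes. The highest ratios were 1.67 for Dppa5a (SE 0.690, adjusted p = 0.425; 95% interval -0.19 to 3.52) and 1.35 for Tcl1 (SE 0.535, adjusted p = 0.411; 95% interval -0.09 to 2.79). Sox2 followed with 0.65 (SE 0.234; limma, unadjusted p = 0.0450, adjusted p = 0.382; 95% interval 0.02 to 1.28).

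No member probe passed in T2KO over T1KO, and 0.00387% of all probes did (1 probe). At an unadjusted p under 0.05, 1 member probe (Sox2) was counted, against 12.7% of all probes. The comparison holds 1 pair, so its spread is assumed to be that of the DKO and WT pairs. T1KO 65 was the lowest of the 11 lines for 4 of the 10 leading probes, Sox2, Dppa2, Dppa5a and Tcl1. WT 92 and DKO 51 were lowest for 2 each. The share of all probes that were lowest in T1KO 65 is not given here, so this count is a description only. The mean of T1KO 65 over the 10 genes, relative to the Cy3 lines, was -0.29, while the other T1KO line, T1KO 99, stood at 0.13. The 14 trophectoderm genes had a summed normalized level (divided by 1000) of 121 and 195 in the T1KO lines, 44.9 in T2KO 16 and 52.5 to 179 in WT, and 11 of the 14 were well above background in all groups. For the 12 primitive endoderm genes it was 31.4 and 41.1 in T1KO, 25.1 in T2KO 16 and 21.4 to 36.1 in WT, with 8 of 12 above background throughout. T2KO 16 carried Cy5 and the other lines Cy3, and a few bright probes can dominate such sums. By median log2 ratio of T2KO 16 over T1KO 65 the trophectoderm list stood at -0.52 and the primitive endoderm list at -0.69. Other lists also shifted: primed epiblast -1.06, 2-cell-like 0.53, germ cell 0.52, mesoderm -0.32, neuroectoderm 0.16 and fibroblast -0.14. The part of these lists in the member ratios was not tested.

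Loss of Tet1 was also estimated with the dye cancelled, as the male DKO over WT mean minus the T2KO over T1KO ratio, divided by 2. A dye effect cancels here only if the slides share it. The value is the effect of Tet1 loss only if that effect does not depend on Tet2. Neither condition was tested. All 10 leading probes had a value below 0, with a median of -0.15 against 0.00 over all probes. The values were -0.52 for Dppa5a (SE 0.423, adjusted p = 0.720; 95% interval -1.66 to 0.61), -0.50 for Dppa3 (SE 0.279, adjusted p = 0.610), -0.50 for Tcl1 (SE 0.328, adjusted p = 0.663) and -0.31 for Sox2 (SE 0.143, adjusted p = 0.551). Without DKO 61 and WT 92 Dppa5a was -0.02, Tcl1 -0.11 and Dppa3 -0.68, and without DKO 51 and WT 6 they were -1.03, -0.88 and -0.33. The other 6 lay between -0.20 and -0.04. No member passed, and 0.00387% of all probes did (10.3% at an unadjusted p under 0.05, no member among them). The count of 10 fell to 8 without the pair DKO 51 and WT 6, where Dppa2 was 0.16 and Nr0b1 0.12. It was 9 with normexp fitted on all spots (Gbx2 at 0.04) and 9 with the scanner software's log ratios (Utf1 at 0.05). This estimate uses T1KO 65 and T2KO 16, the pair described above.

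T1KO and male WT lines carried the same dye on different slides. The leading probes differed by -0.34 (Dppa3, SE 0.653, adjusted p = 0.853) to 0.25 (Gbx2, SE 0.245, adjusted p = 0.674), and 3 of 10 were above 0. Without 1 line Dppa3 ranged from -0.55 to -0.12 and Gbx2 from 0.05 to 0.46. No member passed, against 0.139% of all probes, nor had one an unadjusted p under 0.05, as 14.8% of all had. The interval was narrowest for Utf1 (-0.16, 95% interval -0.47 to 0.14) and widest for Dppa3 (-1.85 to 1.17). For no member did the T1KO range lie wholly outside that of the 4 WT lines, while 12.8% of all probes were wholly higher and 14.1% wholly lower. The 2 T1KO lines differed from each other by 0.78 for Nr0b1 and 0.70 for Tcl1.

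Male DKO and T2KO 16 differ by the loss of Tet1 in cells without Tet2. No member passed, against 0.0155% of all probes (13.9% at an unadjusted p under 0.05, no member among them). Tcl1 was -0.57 (SE 0.473, adjusted p = 0.625; 95% interval -1.66 to 0.53), Dppa5a -0.55 (SE 0.466, adjusted p = 0.629; 95% interval -1.63 to 0.53) and Dppa3 -0.50 (SE 0.80, adjusted p = 0.814; 95% interval -2.35 to 1.36). Without DKO 61 Tcl1 was 0.07, Dppa5a -0.02 and Dppa3 -1.07, and without DKO 51 they were -1.21, -1.09 and 0.07. Of the 13 probes 4 were below T2KO 16 in both male DKO lines, that of Dppa5a among them, as were 34.6% of all probes, and 4 were above it in both, as were 39.3%.

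T2KO 16 was compared with the 2 male WT lines across dyes and slides. Dppa5a was 1.17 higher (SE 0.466; limma, unadjusted p = 0.0370, adjusted p = 0.257; 95% interval 0.09 to 2.25). Without WT 6 this was 0.70, and without WT 92 it was 1.64. Utf1 was -0.42 (SE 0.161; limma, unadjusted p = 0.0335, adjusted p = 0.249), and 0.32 with median centring. Neither passed over all probes, where 0.0116% did, and 17.4% had an unadjusted p under 0.05.

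The 10 genes did not move as a block across the lines. Of all pairs of members, Dppa2 and Nr0b1 had the highest r, 0.80 over 11 lines after dye centring, followed by Dppa5a and Tcl1. Utf1 and Gbx2 followed with 0.62. The lowest was -0.59, between Pou5f1 and Utf1. Pou5f1 and Sox2, which bind DNA together, had an r of 0.30, and Dppa2 and Dppa4 had 0.48.

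**Figure D4:**
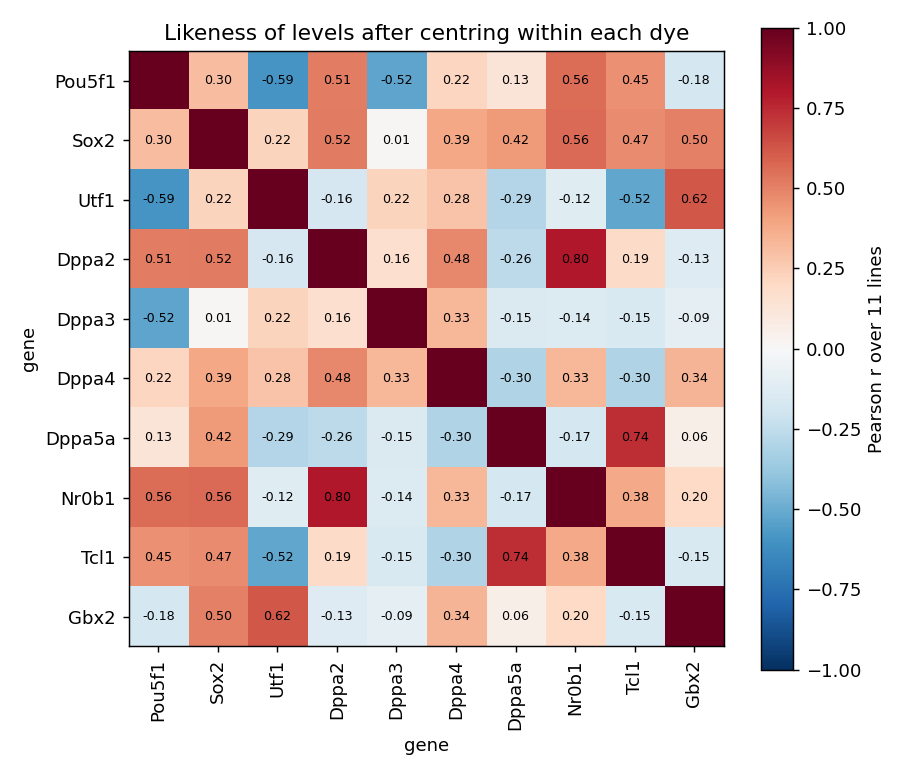
Pearson r between the leading probes of the 10 genes over 11 lines, after subtracting the mean of the lines in the same dye; red is positive, blue negative, and both axes list the genes. The highest value is 0.80 (Dppa2 and Nr0b1) and the lowest -0.59 (Pou5f1 and Utf1).

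Among the 20140 probes well above background in every labelled channel, the 2 genes most like each member, members left out, were named by the same measure over the 11 lines. For Pou5f1 they were Utp15 (r = 0.94) and Cspg5 (0.94), for Sox2 Zfp825 (0.95) and Hpdl (0.90). For Dppa3 Gm12034 (0.95) is given, for Dppa5a Rpl37a (0.96) and an unnamed probe, A_55_P2036952 (0.91). Tcl1 was most like Pcolce2 (0.94) and Ndufb4 (0.94), and Gbx2 most like Ppdpf (0.96) and Msc (0.94). For Utf1 the names were LOC100505024 (0.97) and Eif4g3 (0.95), for Dppa4 Uba2 (0.93) and Grk6 (0.90). For Dppa2 they were 4930453N24Rik (0.94) and the transcript ENSMUST00000057038 (0.93), and for Nr0b1 2310043M15Rik (0.91) and Slc28a1 (0.87). These are the highest of many values over few lines.

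Other regulators of pluripotency were read from a list of 26 genes, all tested. In DKO over WT 0 of 26 passed, 12 were above 0, and their median was -0.02 against 0.02 over all probes. Nanog was -0.28 (SE 0.0948, adjusted p = 0.145) and Prdm14, a repressor of the primed state, 0.36 (SE 0.104, adjusted p = 0.117). In T2KO over T1KO the list had a median of 0.24 and 21 of 26 above 0, with none passing. Its highest value there was 2.04 for Nr5a2, a nuclear receptor that can bind the Pou5f1 enhancer (adjusted p = 0.263).

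In the same comparison of DKO with WT, a few genes of other lists passed. Of 17 germ cell genes Dazl, an RNA-binding protein of germ cells, rose by 1.27 (SE 0.137, adjusted p = 0.0231) and Mov10l1, a piRNA helicase, by 0.66 (SE 0.110, adjusted p = 0.0456); the median of the list was 0.23. Of 13 primed epiblast genes Sall2 rose by 1.51 (SE 0.125, adjusted p = 0.0222), and the median was 0.25. Of 14 genes of the 2-cell-like state, in which Dppa2 and Dppa4 act upstream, Sp110 rose by 0.66 (SE 0.0565, adjusted p = 0.0222), and the median was 0.07. Of 14 trophectoderm genes Eomes rose by 0.89 (SE 0.152, adjusted p = 0.0474). Of 12 neuroectoderm genes Sox11 fell by 1.02 (SE 0.150, adjusted p = 0.0379) and Neurog2 rose by 0.72 (SE 0.0643, adjusted p = 0.0222). Of 20 fibroblast genes S100a6 fell by 0.66 (SE 0.0926, adjusted p = 0.0349). None of 12 primitive endoderm genes (Lama1 -0.79, adjusted p = 0.174) or 9 mesoderm and streak genes (T -0.38, adjusted p = 0.60) passed. None of these calls held without any 1 of the 4 pairs, where 0 probes passed. The lists were not tested as sets, and 4.03% of all probes passed. With so few genes in each, these counts cannot set the lists apart from the members.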

How the data were processed

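RNA of 11 mouse ES lines was measured on 10 two-colour Agilent arrays. Per the file headers, the deposited scanner files of Agilent Feature Extraction 10.1.1.1 hold mean and local background intensity of each spot, not normalized, processed intensity that the software corrected and normalized between dyes, and the log10 ratio of Cy5 over Cy3. The authors' deposited values (31595 probes, 31539 matched) behaved as log2 of Cy5 over Cy3 when set against those log10 ratios over probes with a level above 9 (r = 0.926 to 0.973, slope 2.80 to 2.93). All slopes lay below log2 of 10, the slope of an exact change from log10 to log2. Column medians of the authors' values were 0.00178, 0.00341, 0.00544, 0.00499, 0.00321, 0.00752, 0.00669, 0.00565, 0.00212 and 0.00685. How these values were normalized and centred is not given in the sources used here. An alternative used them.

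Intensities were corrected with normexp (offset 50, with its fit leaving out 71 to 122 gene spots below local background on each array, a choice taken from earlier work on these data after values had been seen), then loess within and Aquantile between arrays. Control and outlier spots (173 to 337 per array) were left out, 1 Nr0b1 spot among them, and spots of a probe and repeat arrays were averaged. The channel of the excluded sample took part in normalization only. A probe was tested if a share of at least 0.5 of its spots was well above background throughout 1 or more groups of like genotype and sex. Of gene spots 55.2% to 61.5% (Cy3) and 62.6% to 69.0% (Cy5) were well above background, and few arrays and lines limit the precision.

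All comparisons used limma 3.58.1 (R 4.3.3; jsonlite 2.0.0, data.table version 1.17.8; plots with matplotlib 3.10.9 and pandas 2.3.3), with lmFit and eBayes, two-sided, and Benjamini-Hochberg adjustment over all 25869 tested probes at 0.05. DKO over WT used the 4 pairs. The sexes, T2KO over T1KO and the dye-cancelled contrast came from ratios with a mean per group, and single-channel comparisons from levels of 11 lines. The fit was tested on simulated data. The text names all member probes, the brightest first, the 2 most alike genes per member, and from each list the genes past the threshold or else the one with the highest absolute value; Nanog and Prdm14 are named in addition, after their values were seen. Some genes that this rule picks are not reported here. Gene names come from the files, and 26581 probes were named through a RefSeq accession. Members, gene lists and tests were chosen with earlier results of these data known. Alternatives were other background fits, normalizations, filters, variance priors, covariates and leaving out each pair or line.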

Additional observations from a re-analysis of the deposited data

Results flagged for a closer look

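In groups of 4 lines, 3 member levels stood apart from the others by Dixon's criterion. The Pou5f1 level of DKO 60 was 15.72, against 15.35 to 15.40 in the other DKO lines. The Dppa5a level of WT 6 was 16.48, against 17.31 to 17.41 in the other WT lines. The Tcl1 level of DKO 61 was 12.27, against 13.54 to 13.74 in the other DKO lines. In all 39 groups of 4 were examined, and chance alone picks about 1 in 20.

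The Cy5 sample that the labels exclude for its genotype entered no comparison. By the leading probe its levels lay above all WT lines for 5 members: Sox2 at 12.92 (WT 12.44 to 12.81), Dppa2 at 12.84 (WT 11.57 to 12.30), Dppa5a at 18.19 (WT 16.48 to 17.41), Nr0b1 at 14.11 (WT 12.48 to 13.36) and Tcl1 at 14.20 (WT 12.42 to 13.32). The second Dppa2 probe read 9.59 in this sample, inside the WT range of 8.80 to 9.72. That sample carried Cy5 and the WT lines Cy3. For Pou5f1, Utf1, Dppa3, Dppa4 and Gbx2 the leading probe of the excluded sample lay inside the WT range. The share of all probes that lay above all WT lines in this sample was not computed. The count of 5 is therefore not a result about the members.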

How the results depend on the processing

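No member probe passed under any alternative except median centring within arrays, which passed 8 probes in DKO over WT and 2 (Pou5f1 and Dppa5a) in T2KO minus male WT, where the median of all probes moved to 0.22 and 0.24. Counts over all probes moved more. For DKO over WT (1043) they were 189 with normexp fitted on all spots, 10019 with median centring, 0 with the intensity-dependent variance prior, 537 with the authors' table, 1726 with all 6 arrays and the line pair as random block, 7 with sex as a covariate and 0 without any 1 pair. T2KO over T1KO (1) gave 0 with normexp on all spots, the scanner's signals, the variance prior and the authors' table, and 3 with median centring. The dye-cancelled Tet1 contrast (1) gave 0 in the same 4 and 8 with median centring and with no filter on dim probes. T1KO minus male WT (36) gave 20 with normexp on all spots, 86 with the scanner's signals, 10 with median centring, 59 with no filter, 0 with the spread of Cy3 lines only and 0 to 2 without 1 line. Male DKO minus T2KO (4) gave 0, 16, 10 and 40 in those first 4 settings, 9 with the variance prior and 2 without either DKO line. T2KO minus male WT (3) gave 0, 308, 5319 and 59, 62 with the variance prior and 1 without either WT line. Female minus male WT (184) gave 95 with the spread of Cy3 lines only and 78 to 263 without 1 line (87 without WT 6, 98 without WT 7).

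Of 449 recomputed member values, 24 changed sign, none of them past the threshold at first. Among these, Utf1 in DKO over WT passed after the change, under median centring. In DKO over WT the Dppa4 probe A_66_P101192 was -0.0024 with normexp on all spots, -0.082 with the scanner's ratios, -0.0724 with the authors' table and -0.0672 to 0.0864 without 1 pair. Sox2 ranged from -0.10 to 0.10 and Gbx2 from -0.16 to 0.0933 without 1 pair. Median centring gave 0.37 for Sox2, 0.42 for Utf1, 0.26 for Dppa4, 0.15 for Gbx2, in T2KO over T1KO 0.49 for Utf1 and 0.32 for Dppa3, and in T2KO minus male WT 0.32 for Utf1. With normexp on all spots Dppa3 was 0.11 in T2KO over T1KO. For male minus female DKO over WT, Nr0b1 was 0.0385 with normexp on all spots, 0.10 with median centring and -0.36 to 0.32 without 1 pair (0.076 without DKO 60 and WT 7), and Dppa5a -0.63 to 1.38. Without 1 line Dppa5a ranged from -0.78 to 0.15 in T1KO minus male WT and from -0.0652 to 0.87 in female minus male WT, Nr0b1 in the latter from -0.22 to 0.66, and in male DKO minus T2KO Dppa3 from -1.07 to 0.073 and Tcl1 from -1.21 to 0.0714. The cause was not tested. The DKO over WT test already used ratios within the hybridised pairs; by replicate number no paired analysis was possible because these numbers mark repeat arrays of a pair and match no samples across pairs.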
